A study of Mus musculus with 4 samples.

Results

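The miR-15/16 family is a group of mature miRNAs that carry the same seed, the short stretch of bases from position 2 to position 8 through which a miRNA recognizes its target mRNAs. The family in plasma was defined here as 5 rows of a mouse miRNA chip with the identifiers of miR-15a-5p (MIMAT0000526), miR-15b-5p (MIMAT0000124), miR-16-5p (MIMAT0000527), miR-195a-5p (MIMAT0000225) and miR-322-5p (MIMAT0000548), of 1265 rows in all. The rows were taken by their identifiers, and the family was proposed with earlier results of these data known. Cell-free RNA was prepared from the plasma of 4 male C57BL6/J mice, for which the labels give no genetic change or treatment. The 2 young mice were 6 to 7 weeks old and the 2 aged mice 23 to 24 months old. RNA of each mouse was labelled with the dye Hy5 and hybridized to its own 3D-Gene chip, a 1-colour array with a probe for each mature miRNA. The mice were bought from more than 1 supplier over the whole study, and the sources used here do not say which mice came from which. Blood was taken by cardiac puncture. Plasma holds RNA released by many tissues, and fewer releasing cells and less RNA per cell cannot be told apart.

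Members of this family hold back the cell cycle by lowering cyclins, cyclin-dependent kinases and other cell cycle proteins, and lower the survival protein Bcl2. miR-15a and miR-16-1 became known through their deletion in human chronic lymphocytic leukaemia. In the mouse, miR-195a takes part in the withdrawal of heart muscle cells from the cell cycle after birth, and miR-322, whose human counterpart is miR-424, acts with its neighbour miR-503 in the cell cycle exit of differentiating myoblasts. miR-16 is abundant in red blood cells, and its plasma level is known to rise when red cells burst during blood collection.

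The mature sequences are shown because they define the family and because 2 pairs of members are so alike that a hybridization probe may not tell them apart. Sequences were taken from RefSeq on the mouse build GRCm38.p6, in which all 5 members were found, and are written 5′ to 3′ with the seed in capitals.
miR-15a-5p: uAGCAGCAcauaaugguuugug
miR-15b-5p: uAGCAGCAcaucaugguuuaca
miR-16-5p: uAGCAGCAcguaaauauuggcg
miR-195a-5p: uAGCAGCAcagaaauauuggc
miR-322-5p: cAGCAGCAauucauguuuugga

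Counted position by position from the 5′ end, miR-16-5p and miR-195a-5p were identical at 19 of 21 positions, and miR-15a-5p and miR-15b-5p at 18 of 22. miR-322-5p shared 15 of 22 positions with miR-15a-5p, 16 of 22 with miR-15b-5p, 12 of 22 with miR-16-5p and 11 of 21 with miR-195a-5p. A further 5 mature mouse miRNAs of the RefSeq table carry the same seed, and the best known of them is miR-497a-5p. Their identifiers on the chip are not paired with names in the sources used here, so they were not analysed. One of them, miR-195b, is identical to miR-195a-5p over the first 16 bases, so the probe for miR-195a-5p may also take up miR-195b.
miR-497a-5p: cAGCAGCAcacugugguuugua
miR-195b: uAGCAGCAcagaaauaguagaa

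The 5 members come from genes on 4 chromosomes. Mir15a, at chr14:61632027-61632110 on the minus strand, and Mir16-1, at chr14:61631880-61631972, lie 54 bases apart within the long noncoding gene Dleu2. Mir15b, at chr3:69009772-69009835 on the plus strand, and Mir16-2, at chr3:69009902-69009996, lie 66 bases apart within Smc4, which encodes a condensin subunit. Both miR-16 genes give the same mature miR-16-5p, so its single probe reads their sum. Mir195a, at chr11:70235042-70235135, lies 241 bases from Mir497. Mir322, at chrX:53054255-53054349, lies 901 bases from Mir351 in the noncoding gene C430049B03Rik.

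The authors deposited linear signal intensities, set so that the median of the values listed on an array is 25. All 5 members were listed on all 4 arrays, as were 362 of the 1265 rows. The arrays listed between 439 and 620 miRNAs, and their lowest listed signals were 7.0 to 9.5. The arrays were not on one scale, since the median signal of the 362 shared miRNAs was 67.9 and 35.2 in young mice 1 and 2 and 62.1 and 56.0 in aged mice 1 and 2. Probes differ in how well they bind, so no level is compared between members. The ages were compared with limma on log2 intensities over the 362 miRNAs with Benjamini-Hochberg adjustment. With 2 mice per age the number of arrays limits the precision. Every difference has a standard error of 0.60 on the log2 scale because limma estimated 1 spread common to all miRNAs. This fit used the deposited scale, so differences in scale between arrays enter that spread. The standard error of each member was 0.42 once the arrays were set to equal medians of the shared miRNAs.

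In aged plasma the signals of miR-15a-5p and miR-15b-5p were higher on average than in young plasma, those of miR-16-5p and miR-195a-5p were close to those of young plasma, and that of miR-322-5p was lower. None of these differences passed the test. Of the 5 members, 0 had an adjusted p under 0.05 in limma and 0 an unadjusted p under 0.05, where 1 of all 362 miRNAs, or 0.276%, passed the adjusted threshold and 22 the unadjusted one. The adjusted p of the members ran from 0.86 to 0.95. Their log2 differences, aged minus young, had a median of 0.29, beside a median of 0.31 over all 362 miRNAs. The differences of 2 members, miR-15a-5p and miR-15b-5p, lay above the median of all miRNAs.

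The signal of miR-15a-5p, one of the miRNAs of the Dleu2 locus, was 322.0 and 192.1 in young mice 1 and 2 and 319.4 and 421.7 in aged mice 1 and 2. Young mouse 1 and aged mouse 1 had nearly the same signal, so the ages overlapped. The young mean was 257.0 ± 91.9 (SD, n = 2 mice) and the aged mean 371 ± 72.3 (SD, n = 2 mice), with a log2 difference of 0.56 (95% confidence interval -0.61 to 1.74, adjusted p = 0.87 from limma). The signal of its close relative miR-15b-5p was 414.3 and 256.8 in young mice 1 and 2 and 458.7 and 551.4 in aged mice 1 and 2. Both aged mice lay above both young mice. The young mean was 336 ± 111 (SD, n = 2 mice) and the aged mean 505 ± 65.5 (SD, n = 2 mice), with a log2 difference of 0.62 (95% confidence interval -0.55 to 1.80, adjusted p = 0.86 from limma). On the deposited scale it was the only member with both aged mice above both young mice, and no member had both below, where 19.9% of the 362 miRNAs had both aged mice above and 9.94% had both below.

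The signal of miR-16-5p was 1753.1 and 1204.8 in young mice 1 and 2 and 1497.7 and 2098.8 in aged mice 1 and 2. The young and aged mice overlapped, with young mouse 1 above aged mouse 1. The young mean was 1479 ± 388 (SD, n = 2 mice) and the aged mean 1798 ± 425 (SD, n = 2 mice), with a log2 difference of 0.29 (95% confidence interval -0.89 to 1.46, adjusted p = 0.88 from limma). This difference was within 0.02 of the median of all miRNAs and turned to -0.24 with quantile normalization (adjusted p = 0.80 from limma), so it has no settled direction. Because miR-16-5p is a miRNA of red cells, the signal of miR-486-3p, another red cell miRNA and the only one of the list of red cell miRNAs whose row could be named, is given beside it. It was 484.5 and 121.3 in young mice 1 and 2 and 836.1 and 437.1 in aged mice 1 and 2. On the log2 scale, miR-16-5p minus miR-486-3p was 1.86 and 3.31 in the young and 0.84 and 2.26 in the aged mice, and the ages overlapped. The row of miR-486-3p could be named because the study listed it among the highest aged over young ratios on these same arrays, so a lower ratio to it in aged plasma is set in part by that choice. The log2 ratio to miR-486-3p was lower in both aged mice than in the young ones for 1 member, miR-322-5p, and overlapped for the other 4, where 49.6% of all other miRNAs were lower without overlap. The other miRNAs of that list could not be named, so miR-486-3p does not stand for red cell miRNAs as a group. The share of red cell RNA in these plasma samples was not tested.

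The markers of other cells that could be named came from the same list of extreme ratios and carry the same limit. The signal of miR-223-3p, a miRNA of neutrophils that platelets also hold, was 269.1 and 141.4 in young mice 1 and 2 and 429.9 and 499.2 in aged mice 1 and 2. It was higher in both aged mice, as was that of miR-15b-5p. The muscle miRNA miR-1a-3p was at 525.0 and 214.8 in the young and 56.8 and 159.2 in the aged mice, and miR-133a-3p at 362.6 and 155.9 in the young and 67.8 and 142.2 in the aged mice. Both were lower in both aged mice, as were 9.94% of the 362 miRNAs. They were lowest in aged mouse 1, which also had the lowest signals of miR-195a-5p and miR-322-5p. The part of these cell types in the signals of the family was not tested.

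miR-195a-5p and miR-322-5p were the members with the lowest differences. The signal of miR-195a-5p was 97.9 and 63.1 in young mice 1 and 2 and 52.3 and 106.3 in aged mice 1 and 2. The 2 aged mice lay on either side of both young mice. The young mean was 80.5 ± 24.6 (SD, n = 2 mice) and the aged mean 79.3 ± 38.2 (SD, n = 2 mice), with a log2 difference of -0.08 (95% confidence interval -1.25 to 1.10, adjusted p = 0.95 from limma). Leaving out aged mouse 1 gave a difference of 0.44, and leaving out young mouse 1 gave 0.24, so single arrays set its sign.

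The signal of miR-322-5p, the member encoded on the X chromosome, was 37.5 and 22.6 in young mice 1 and 2 and 14.8 and 24.2 in aged mice 1 and 2. The ages overlapped narrowly, since aged mouse 2 lay just above young mouse 2. The young mean was 30.1 ± 10.5 (SD, n = 2 mice) and the aged mean 19.5 ± 6.65 (SD, n = 2 mice), with a log2 difference of -0.62 (95% confidence interval -1.80 to 0.55, adjusted p = 0.86 from limma), which ranked 31st from the lowest of 362. This is the dimmest of the 5 spots, and its signal was 5.4 and 2.8 times the lowest listed signal of the array in the young and 2.1 and 2.5 times in the aged mice, so its fold changes rest on low signals.

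**Figure D1:**
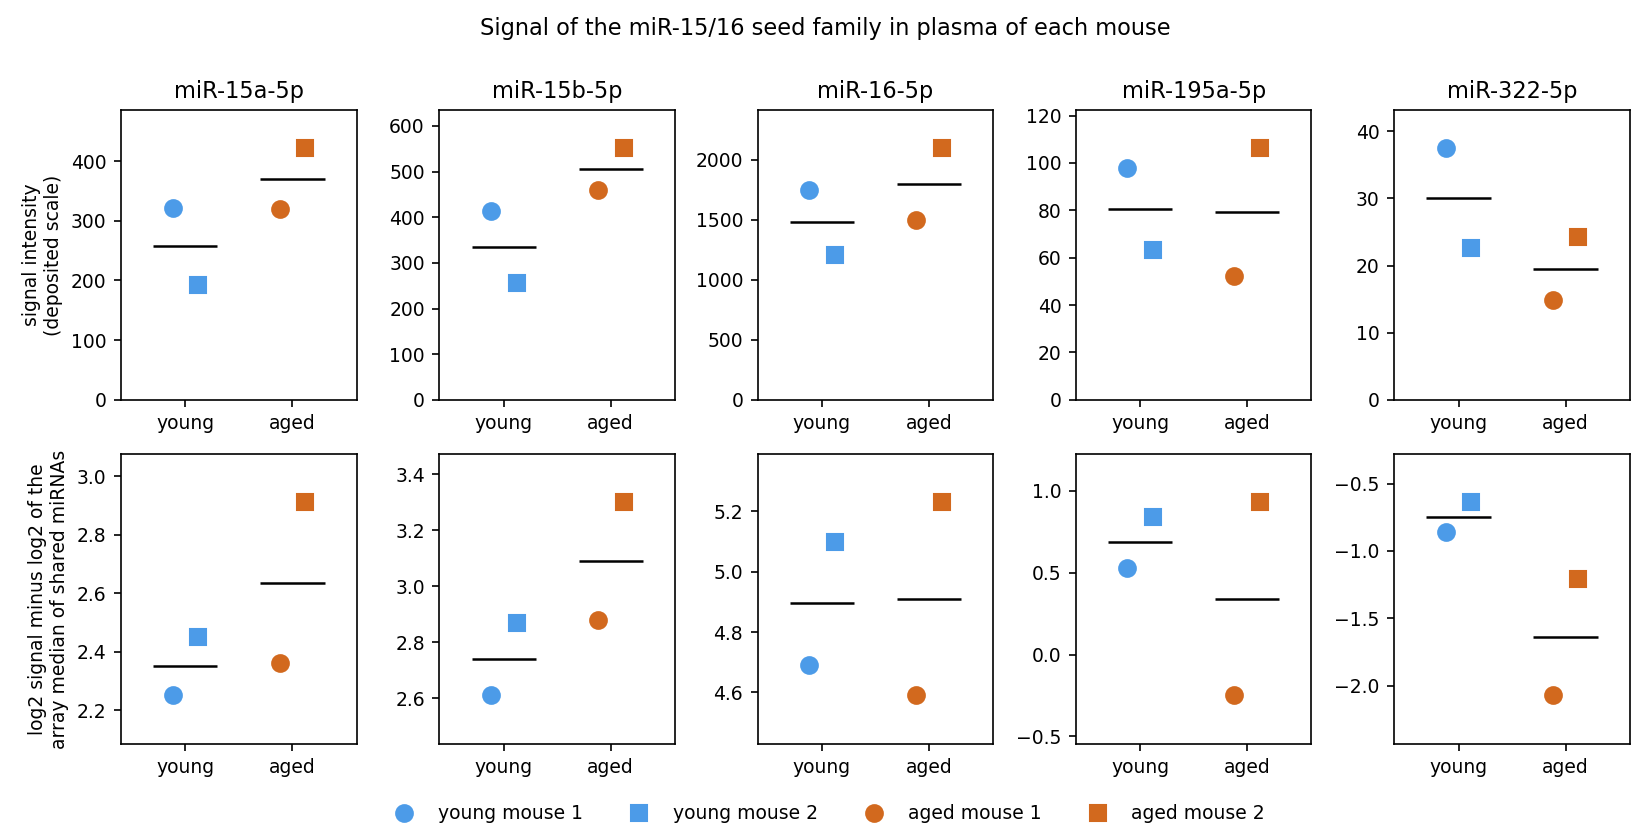
Each column is a member, and each point is the array of 1 mouse, with a bar for the mean of the 2 mice of an age. The upper row plots the deposited signal intensity on a linear axis from 0, and the lower row the log2 signal minus the log2 median of the 362 shared miRNAs on the same array, on an axis of its own range. In the lower row both aged mice lie below both young mice for miR-322-5p and above them for miR-15b-5p.

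**Figure D2:**
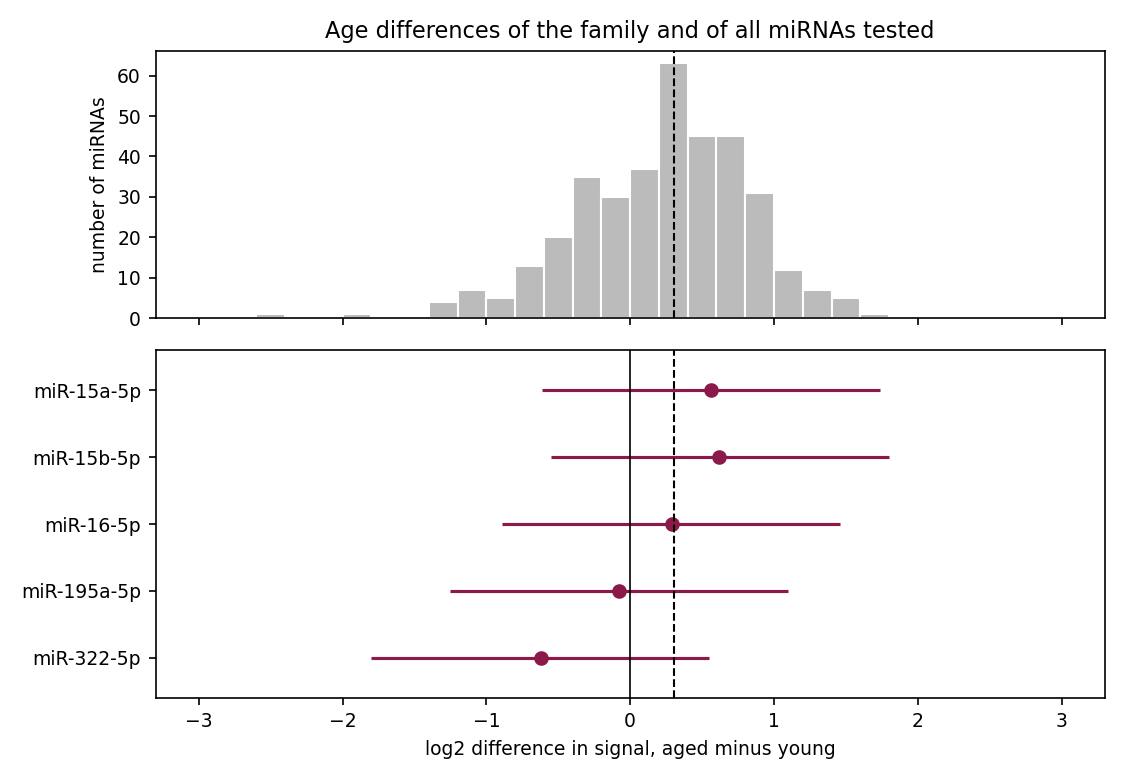
The upper panel counts the 362 miRNAs by their log2 difference, aged minus young, and the lower panel gives the difference of each member with its 95% confidence interval from limma. The dashed line marks the median of all miRNAs at 0.31. All 5 intervals contain 0 and the dashed line.

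Since the arrays differed in scale, the members were also expressed relative to the median of the shared miRNAs on their own array. On this scale miR-15a-5p was at log2 values of 2.25 and 2.45 in young mice 1 and 2 and 2.36 and 2.91 in aged mice 1 and 2, and the ages overlapped. For miR-15b-5p the values were 2.61 and 2.87 in the young and 2.88 and 3.30 in the aged mice, a separation by 0.01 between young mouse 2 and aged mouse 1. miR-16-5p was at 4.69 and 5.10 in the young and 4.59 and 5.23 in the aged mice, a difference of 0.02 between the ages. In miR-195a-5p the young mice were at 0.53 and 0.84 and the aged mice at -0.25 and 0.93, so that aged mouse 1 alone was low. miR-322-5p was at -0.86 and -0.64 in the young and at -2.07 and -1.21 in the aged mice, and here both aged mice were below both young mice. With this scaling both aged mice were above both young mice for 1 member, where the share of all 362 miRNAs was 21.8%, and below them for 1 member, where it was 22.7%. The difference of miR-322-5p was -0.89 with a standard error of 0.42, with an adjusted p of 0.28 from limma on these values.

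Ratios between 2 members within an array do not depend on the scale of that array. They carry the binding of both probes, so only their change between arrays is read. All 10 pairs of members were compared. This comparison was added after the values had been seen, and the 10 pairs share 5 members and are therefore not independent. The log2 ratio of miR-15a-5p to miR-15b-5p was -0.36 and -0.42 in young mice 1 and 2 and -0.52 and -0.39 in aged mice 1 and 2, and it was the 1 pair whose ages overlapped. The difference between the ages in this pair was -0.06.

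In the other 9 pairs both aged mice lay above both young mice, with miR-15a-5p, miR-15b-5p or miR-16-5p taken over miR-195a-5p or miR-322-5p, miR-195a-5p over miR-322-5p, and miR-15a-5p or miR-15b-5p over miR-16-5p. Of all 65341 pairs of the 362 miRNAs, 48.4% had separate ages in one direction or the other. The log2 ratio of miR-15a-5p to miR-322-5p was 3.10 and 3.09 in the young and 4.43 and 4.12 in the aged mice. That of miR-15b-5p to miR-322-5p was 3.47 and 3.51 in the young and 4.95 and 4.51 in the aged mice. The young mice differed by at most 0.04 in these 2 ratios, and the aged mice lay higher by 1.18 and 1.25 on average. They were the 2 of 10 pairs that were separate with a difference of at least 1 on the log2 scale, where 20.4% of all pairs were, a share close to that among the members.

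The other ratios differed less between the ages. The log2 ratio of miR-16-5p to miR-322-5p had a mean of 5.64 ± 0.13 (SD, n = 2) in the young and 6.55 ± 0.16 (SD, n = 2) in the aged mice. That of miR-195a-5p to miR-322-5p had means of 1.43 ± 0.07 (SD, n = 2) and 1.98 ± 0.22 (SD, n = 2). The ratios of miR-15a-5p and miR-15b-5p to miR-195a-5p were higher by 0.64 and 0.70 in aged plasma, those to miR-16-5p by 0.27 and 0.34. miR-16-5p over miR-195a-5p, the pair of near-identical sequences, was 4.16 and 4.26 in the young and 4.84 and 4.30 in the aged mice, and aged mouse 2 was only 0.04 above young mouse 2. An exact two-sided permutation test over 2 mice against 2 gave p = 0.333 for each of the 9 pairs, the smallest value this design allows, and 0.37 after Benjamini-Hochberg adjustment over the 10 pairs. No pair could therefore pass 0.05.

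**Figure D3:**
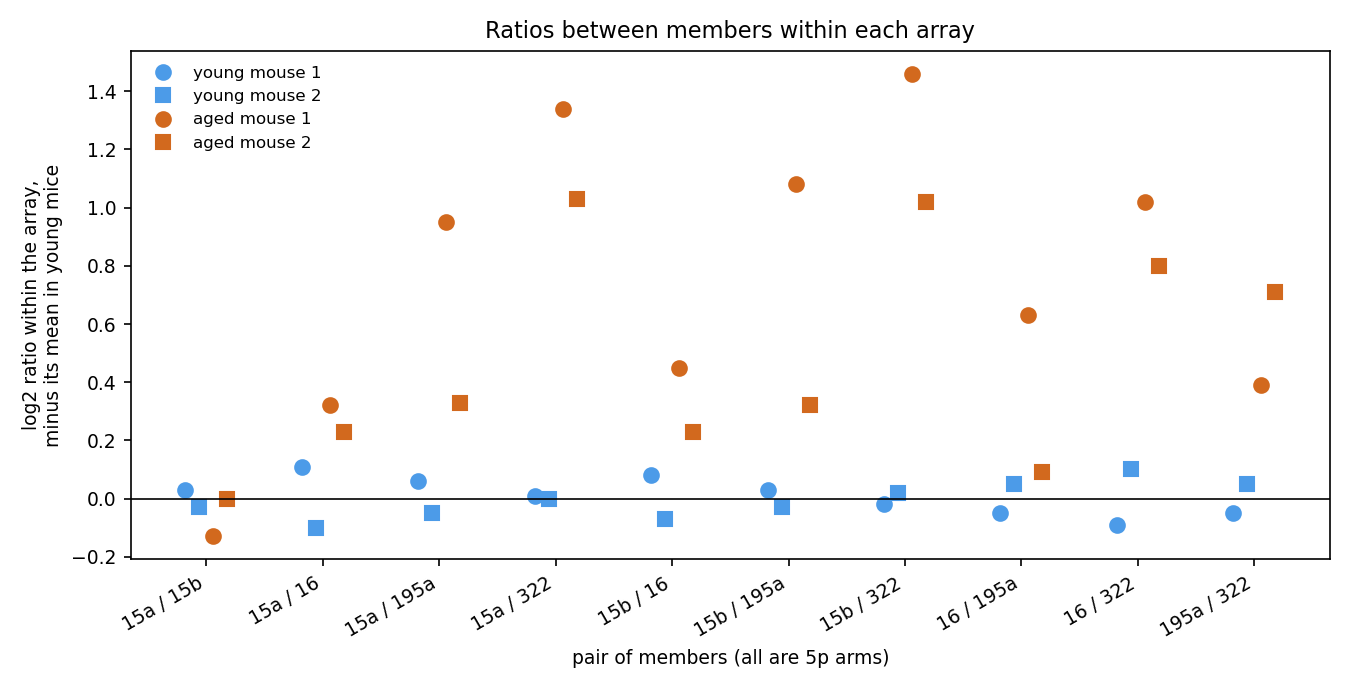
Each group of 4 points is a pair of members, and each point is the log2 ratio of their signals within the array of 1 mouse, minus the mean of that ratio in the 2 young mice. Points of the aged mice lie above those of the young mice in every pair but miR-15a-5p with miR-15b-5p, and are highest for those 2 members over miR-322-5p.

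miR-322-5p was set beside miR-351-5p, the miRNA encoded 901 bases away and a relative of miR-125. The signal of miR-351-5p was 26.7 and 27.2 in young mice 1 and 2 and 10.8 and 12.9 in aged mice 1 and 2. Both aged mice were below both young mice, with a log2 difference of -1.19 (95% confidence interval -2.37 to -0.02, adjusted p = 0.81 from limma). This miRNA could be named because the study listed it among those with the lowest ratios on these same arrays, so it is not independent evidence of a direction at this locus. Its aged signals were 1.5 and 1.4 times the lowest listed signal of the array. The log2 ratio of miR-322-5p to miR-351-5p was 0.49 and -0.27 in the young and 0.45 and 0.91 in the aged mice, and the ages overlapped. For the other 4 members the aged mice had the higher ratio to miR-351-5p without overlap, by 1.11 for miR-195a-5p and 1.82 for miR-15b-5p as the lowest and highest. The same held for 87.5% of all 361 other miRNAs, since miR-351-5p was itself among the lowest, so these 4 ratios say nothing particular about the family.

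The pattern over the 4 arrays was compared between members by centring each log2 profile on its own mean and taking the root mean square difference between profiles. A shift of a whole array changes all profiles alike and cancels in this measure. miR-15a-5p and miR-15b-5p, which derive from different chromosomes and share 18 of 22 positions, differed by 0.06. Of the 361 other miRNAs, miR-15b-5p was the 4th nearest to miR-15a-5p, and miR-15a-5p the 3rd nearest to miR-15b-5p. Cross-hybridization between these probes was not tested. miR-16-5p differed by 0.16 from miR-15a-5p, its partner at the Dleu2 locus, which ranked 32nd among its neighbours, and by 0.19 from miR-15b-5p, its partner at the Smc4 locus, which ranked 47th. The pair most alike in sequence, miR-16-5p and miR-195a-5p, differed by 0.26. In this pair miR-195a-5p ranked 99th among the neighbours of miR-16-5p, and miR-16-5p ranked 38th among those of miR-195a-5p. miR-322-5p was farthest from miR-15b-5p, at 0.64, and nearest to miR-195a-5p, at 0.30.

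**Figure D4:**
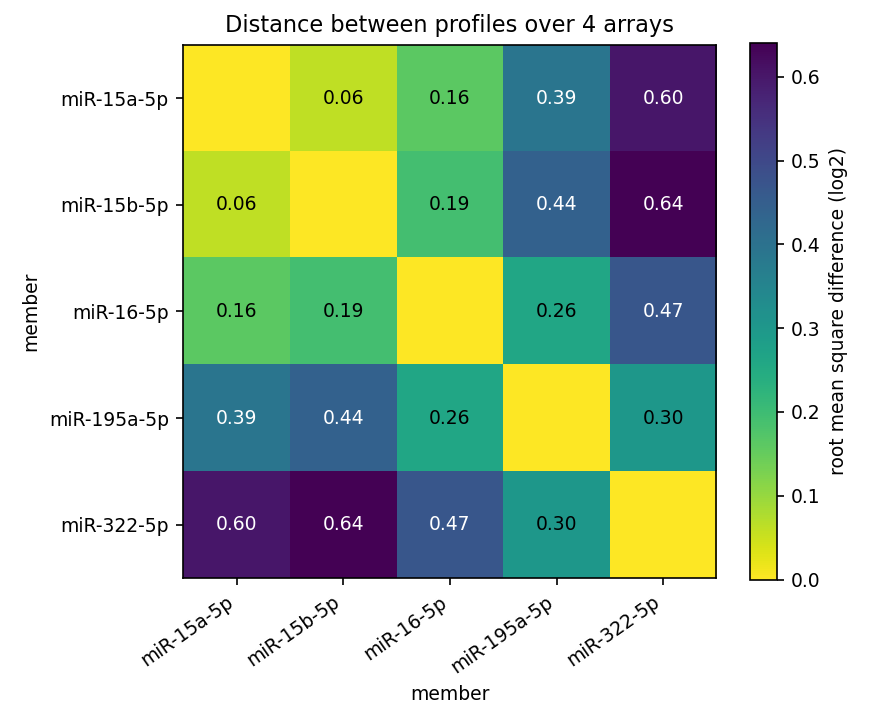
Each cell gives the root mean square difference on the log2 scale between the centred profiles of 2 members over the 4 arrays, with darker cells for less similar profiles. The lowest value is 0.06 for miR-15a-5p with miR-15b-5p, and the highest is 0.64 for miR-15b-5p with miR-322-5p.

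Among the miRNAs outside the family, the search took those with a mean signal at or above the median of the 362. The rows nearest to the mean profile of the members were MIMAT0000246, MIMAT0020607 and MIMAT0019341, at 0.054, 0.085 and 0.086. The nearest to both miR-15a-5p and miR-15b-5p was the row MIMAT0000535, at 0.019 and 0.047, with signals of 444.0 and 272.4 in young mice 1 and 2 and 453.4 and 584.5 in aged mice 1 and 2. The nearest to miR-16-5p was the row MIMAT0003130, MIMAT0014943, at 0.073, with 599.2 and 375.0 in the young and 534.9 and 724.2 in the aged mice. For miR-195a-5p it was the row MIMAT0001632, at 0.124, with 9348.7 and 6802.8 in the young and 5794.4 and 9561.0 in the aged mice. The nearest to miR-322-5p was the row MIMAT0000523, at 0.102, with 572.3 and 296.5 in the young and 230.4 and 333.2 in the aged mice. Dim rows were left out of this search, so the brightness of the rows found follows from it. The sources used here do not pair these identifiers with names. These likenesses rest on 4 arrays and are a description only.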

How the data were processed

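Cell-free RNA from plasma of 2 young and 2 aged mice was read on 1-colour miRNA chips, 1 per mouse. The deposited values are linear signal intensities that the authors scaled to a median of 25 per array, with blanks for miRNAs that were not listed. The sources used here do not give how they were scaled, corrected for background and chosen for listing. A further 8 columns of intensities, with headings that could not be tied to a mouse, stayed out. The log2 of each value was used with no pseudocount for the 362 miRNAs listed on all arrays and fitted without a block by lmFit and eBayes of limma 3.58.1 (R 4.3.3), with a threshold of 0.05 on the adjusted p. The step was tested on simulated data. Python 3.11.15 with numpy 2.4.6, pandas 2.3.3, scipy 1.17.1 and matplotlib 3.10.9 gave the ratios, the permutation tests and the plots. The labels do not say that the mice came from separate litters or cages, so p-values measure the spread between these mice only.

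The members and lists were chosen with earlier results of these data known. Member names follow the stated order of their identifiers, and 24 further rows were named by matching the signals printed for them in the study. The rule for named miRNAs took the members, miRNAs with the same seed, the other arm of each hairpin, miRNAs encoded beside the members and the nearest profiles. Of these, the same-seed miRNAs, the other arms and all neighbours but miR-351-5p could not be named on the chip. Of the marker lists, only miR-486-3p (red cells), miR-223-3p (platelets), miR-1a-3p and miR-133a-3p (muscle) could be named, all from the study's list of extreme ratios, and the white cell and liver lists were not read. Alternatives were quantile normalization, equal medians of the shared or of the 439 brightest miRNAs, a filter on low signals, blanks set to the lowest listed value, a replicate block, leaving out each array, a pseudocount of 16, a variance with trend and robust options and the one-way test the methods name.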

Additional observations from a re-analysis of the deposited data

How the results depend on the processing

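The log2 differences of miR-15a-5p, miR-15b-5p and miR-322-5p kept their sign under the settings run, and no member passed the threshold in any setting with 2 mice per age. With quantile normalization miR-16-5p turned to -0.24, as did the median of the members. With 1 array left out, the lone mouse of an age is assumed to vary like those of the other age, and only effect sizes are read. They ran from 0.19 to 0.93 for miR-15a-5p, 0.28 to 0.97 for miR-15b-5p, 0.02 to 0.56 for miR-16-5p, -0.59 to 0.44 for miR-195a-5p (0.24 without young mouse 1 and 0.44 without aged mouse 1), -0.99 to -0.26 for miR-322-5p and 0.02 to 0.56 for the median of the members. The filter on low signals kept 181 miRNAs and dropped miR-322-5p.

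Of all miRNAs, 1 passed the threshold. The count was 0 with quantile normalization, with a variance with trend and robust options and with the adjusted one-way test of the methods, 2 with blanks filled, 16 with equal medians of the shared miRNAs, 18 with those of the brightest, and 7 with the one-way test unadjusted. It ran from 0 to 50 with 1 array left out. The cause was not tested.

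The changes of miR-322-5p relative to miR-15a-5p and miR-15b-5p, -1.18 and -1.25, were -0.90 and -0.97 with a pseudocount of 16, which compresses low signals by construction, and ran from -1.34 to -1.03 and from -1.47 to -1.02 with 1 array left out. These alternatives were chosen after seeing the data. The median change of the members relative to miR-486-3p was -1.03, ran from -1.76 to -0.30 with 1 array left out, and was 0.02 relative to the median of the shared miRNAs. The negative sign is set in part by the choice of miR-486-3p from the highest ratios on these arrays and is not read as a fall of the family.

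The mice share the numbers 1 and 2, and the deviations of same-numbered arrays had a correlation of 0.34. The study prints the signals it lists under experiments 1 and 2, for young and aged mice alike. Same-numbered arrays may therefore belong to 1 experiment, but neither the study nor the labels state a shared day or batch. With the number as a replicate block the differences were 0.56, 0.62, 0.29, -0.08 and -0.62 for the members in their given order, with a median of 0.29, 1 miRNA passed the threshold, and no call changed. An index of red cells from miR-451a and miR-23a-3p was not run, because their rows could not be named.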
